A study of Mus musculus with 12 samples.

Results

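The genes described here are Sh3tc1, Trak2, Rabggta, Prss23, Fer1l4 and Zc3h7a, 6 of the 35688 genes listed for the colon of 2-week-old mice. They were chosen by their measured levels, which set Il10-/- colons apart from Il10-/- Tnfr1-/- colons, so the difference between the genotypes is given below as a description, with no test. They account for 55 of 113193 transcripts, found by gene symbol after repeated transcript identifiers were dropped: 7 of Sh3tc1, 6 of Trak2, 10 of Rabggta, 8 of Prss23, 6 of Fer1l4 and 18 of Zc3h7a. Of these 55 transcripts, 6 were at 0 in every library. All 6 genes had a summed value above 1 in at least 5 libraries and so passed the filter on low values, which Fer1l4 could have passed through the Il10-/- libraries alone.

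Every mouse in both groups was deficient for Il10, which encodes interleukin 10, a cytokine that restrains inflammation. The first group, Il10-/-, carried no other deletion (5 mice with data, replicates 1, 2, 3, 5 and 6). The second, Il10-/- Tnfr1-/-, also lacked TNF receptor 1, the product of Tnfrsf1a (6 mice). Total RNA came from dissected colon, full thickness by the study's design, at an age of 2 weeks, with 1 library per mouse. The labels name no cell-type-specific driver, do not say which part of either gene was deleted, and give neither sex nor litter. No wild-type colon was measured, so every value is relative to the other genotype. In whole colon, fewer cells of a type and less RNA per cell cannot be told apart.

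The 6 genes belong to unrelated processes. Trak2 is an adaptor that couples mitochondria to microtubule motors. Rabggta is a subunit of the enzyme that attaches geranylgeranyl lipids to Rab GTPases, the switches of vesicle traffic. Prss23 encodes a secreted serine protease, Fer1l4 belongs to the ferlins, membrane proteins with C2 domains, Zc3h7a carries CCCH zinc fingers, and Sh3tc1 combines an SH3 domain with tetratricopeptide repeats. A gene of this kind gives rise to several annotated transcripts. Those in the class retained_intron keep intron sequence and are not annotated as coding, and those in the class nonsense_mediated_decay carry an early stop codon.

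Library sums of the deposited abundances ran from 804109 to 1378971, the highest in Il10-/- replicate 6. Tnfrsf1a had a mean of 47.9 ± 18.5 (SD, n = 5) where the gene was intact and of 14.8 ± 2.34 (SD, n = 6) where it was deleted, with no overlap. Defining epithelial markers (11 of 11) and smooth muscle markers (10 of 10) passed the filter on low values, while none of 3 mesothelial markers did. Smooth muscle markers were higher in Il10-/- Tnfr1-/- colons for 10 of 10 genes, and their summed level ran from 185 to 3506 in Il10-/- and from 829 to 8021 in Il10-/- Tnfr1-/- libraries. Across the 13561 genes tested with limma, 0 passed an adjusted p of 0.05 and 1131 (8.34%) had an unadjusted p under 0.05. This last count rests on single libraries: it was 2450 without Il10-/- replicate 1, 1717 without replicate 2, 745 without replicate 5 and 474 without replicate 6.

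All levels below are the deposited abundances, which are per transcript length, summed over a gene's transcripts. Log2 differences are Il10-/- Tnfr1-/- minus Il10-/-, on log2(value + 0.5), from the limma fit over all genes. Over all genes the median difference was 0.05 on this log2 scale, and 44.5% of genes were lower. Ordered by p among all genes tested, the 6 genes took places 5 (Sh3tc1), 6 (Fer1l4), 8 (Prss23), 9 (Trak2), 10 (Rabggta) and 11 (Zc3h7a), which describes how they came to be chosen.

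In 3 of the 6 genes, Sh3tc1, Trak2 and Rabggta, the genotypes did not overlap, as was so for 78 of the 13561 genes tested (0.575%). In the other 3 they did overlap, so the genes do not all separate the genotypes. Of the 6, 4 were lower in Il10-/- Tnfr1-/- colons and 2, Trak2 and Prss23, were higher. Nor were all shifts small: the ratio of the higher to the lower genotype mean was between 1.58 and 1.73 for Sh3tc1, Trak2, Rabggta and Zc3h7a, but 2.91 for Prss23 and 4.33 for Fer1l4.

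Trak2 (chr1:58900449-58973430, minus strand, mm10) had values of 7.43, 7.90, 6.61, 5.69 and 4.75 in Il10-/- replicates 1, 2, 3, 5 and 6. In the Il10-/- Tnfr1-/- libraries the lowest value was 8.73, the median 11.01 and the highest 12.3. All 6 double-knockout libraries lay above all 5 others, and the smallest gap was narrow, a ratio of 1.11 between the lowest value of the upper group and the highest of the lower. The means were 6.48 ± 1.28 (SD, n = 5) and 10.9 ± 1.33 (SD, n = 6), a log2 difference of 0.72 ± 0.16 (SE). Trak2 lies on the same chromosome as Il10, 72.0 Mb away, and none of the other 5 genes shares a chromosome with Il10 or Tnfrsf1a.

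Prss23 (chr7:89507783-89527187, minus strand) read 3.42, 16.2, 8.78, 5.45 and 3.33 in the Il10-/- replicates in the same order. The Il10-/- Tnfr1-/- libraries had a lowest value of 13.5, a median of 22.6 and a highest of 28.5. Replicate 2 of Il10-/- stood above the lowest double-knockout library, replicate 6, and the other 4 Il10-/- libraries lay below all 6. The means were 7.44 ± 5.38 (SD, n = 5) and 21.7 ± 5.19 (SD, n = 6), and the log2 difference was 1.68 ± 0.36 (SE). The spread within Il10-/- was wide, with a coefficient of variation of 72.3% against 24.0% in the double knockouts.

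Sh3tc1 (chr5:35697180-35739987, minus strand) read 17.7, 14.3, 16.5, 14.8 and 19.8 in Il10-/- replicates 1, 2, 3, 5 and 6. Its lowest, median and highest values in Il10-/- Tnfr1-/- were 8.57, 9.83 and 11.8. The groups did not overlap, and this gene had the tightest spread of the 6, with a residual SD of 0.17 on the log2 scale against a median of 0.42 over all genes. Its means were 16.6 ± 2.24 (SD, n = 5) and 10.02 ± 1.18 (SD, n = 6), a log2 difference of -0.70 ± 0.14 (SE).

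Rabggta (chr14:55715416-55722263, minus strand) had values of 13.3, 11.02, 14.8, 12.99 and 16.6 in the Il10-/- replicates. In Il10-/- Tnfr1-/- the lowest was 7.20, the median 8.68 and the highest 10.2. Again the groups stood apart, by a ratio of 1.08 at the narrowest point, between Il10-/- replicate 2 and double-knockout replicate 3. Means of 13.7 ± 2.09 (SD, n = 5) and 8.73 ± 1.23 (SD, n = 6) gave a log2 difference of -0.62 ± 0.15 (SE).

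Fer1l4 (chr2:156019139-156052947, minus strand) was the least abundant of the 6, with 6.52, 1.79, 4.01, 6.25 and 7.47 in the Il10-/- replicates. Double-knockout libraries had a lowest value of 0.601, a median of 1.26 and a highest of 1.81. The overlap was slight: Il10-/- replicate 2, at 1.79, was just under double-knockout replicate 6. The means were 5.21 ± 2.29 (SD, n = 5) and 1.20 ± 0.46 (SD, n = 6), a log2 difference of -1.67 ± 0.34 (SE).

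Zc3h7a (chr16:11136592-11176393, minus strand) was the most abundant, at 144, 109.9, 139.7, 145 and 202 in the Il10-/- replicates. The lowest double-knockout value was 67.4, the median 76.1 and the highest 114. Only 1 library crossed over on each side, Il10-/- replicate 2 and double-knockout replicate 5. The means were 148 ± 33.2 (SD, n = 5) and 85.4 ± 19.0 (SD, n = 6), a log2 difference of -0.79 ± 0.19 (SE).

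**Figure D1:**
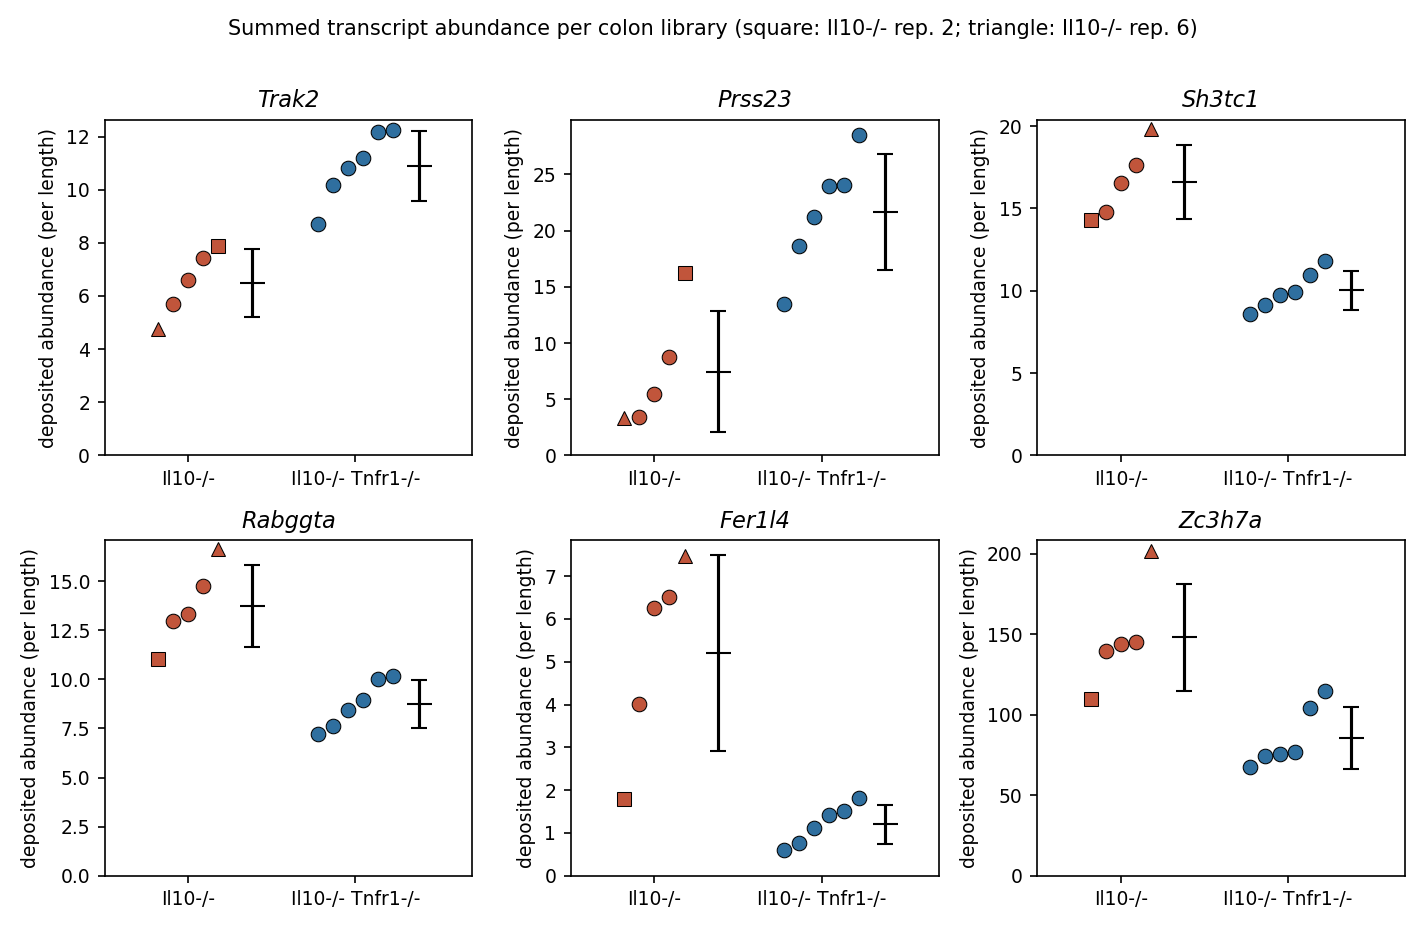
Summed deposited abundance (per transcript length) of each gene in the 5 Il10-/- and 6 Il10-/- Tnfr1-/- colon libraries, 1 point per library, with the mean and SD beside each group. Sh3tc1, Trak2 and Rabggta show no overlap, and in all 6 panels, on the deposited scale, Il10-/- replicate 2 (square) lies nearest to, and replicate 6 (triangle) farthest from, the other genotype.

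The same libraries stood at the ends of the Il10-/- group for every gene. Replicate 2 was the Il10-/- library nearest to the other genotype in 6 of 6 genes, and replicate 6 was the farthest in 6 of 6, an order that was noticed after the values were seen. It depends on the scaling: replicate 6 also had the highest library sum, and with every library set to the same total replicate 2 was nearest in 4 genes and replicate 6 farthest in 2, Trak2 and Prss23. Leaving out the nearest library could only widen each gap, and the share of all genes without overlap was not counted for that setting. Without replicate 2 the genotypes did not overlap in any of the 6 genes. The log2 difference of Prss23 was then 2.01, that of Fer1l4 was -1.96 and that of Zc3h7a was -0.89. Replicate 6 had the lowest fibroblast marker score of the 11 libraries (2.49, the mean log2 level of 8 markers). Replicate 2 had the highest of the 5 Il10-/- libraries (5.02), almost level with replicate 3 (4.97). Among Il10-/- libraries the epithelial score was lowest in replicate 2 (9.08) and highest in replicate 6 (9.86). Other scores did not have this order: smooth muscle, endothelial, and enteric neuron and glia scores were highest in replicate 3, and the leukocyte score in replicate 1. The part of these scores in the order of the libraries was not tested.

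The transcripts were compared next, to find which of them carried each gene's difference. The carrying transcript is the one with the largest share of the difference between the genotype means of the summed gene. In Trak2 and Prss23, the genes that were higher in the double knockouts, it was a protein-coding transcript. In the 4 genes that were lower it was not: Sh3tc1 was carried by a transcript of the class nonsense_mediated_decay, and Rabggta, Fer1l4 and Zc3h7a by transcripts of the class retained_intron. The carrying transcript held between 47.6% and 104% of the gene's difference, where a share above 100% means that other transcripts of the gene differed the opposite way. Of the 55 transcripts, 20 passed the filter on low values, and 1 of these 20, Trak2-201, did not overlap between genotypes, against 116 of all 27895 transcripts tested (0.416%).

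Trak2 rested on 1 transcript. Trak2-201, of 6189 bases and 16 exons, averaged 6.11 ± 1.04 (SD, n = 5) in the single and 10.7 ± 1.35 (SD, n = 6) in the double knockouts, which is 104% of the gene's difference. The other 5 transcripts of Trak2 each averaged under 0.5. Its values were 6.34, 7.47, 6.53, 5.46 and 4.75 in the Il10-/- replicates and ran from 8.44 through a median of 10.9 to 12.1 in the double knockouts. The groups were as clearly apart as for the summed gene. Of its 31-base stretches, 50.04% occurred in no other transcript of the annotation, so reads could be told from those of other transcripts over much of its length.

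Prss23 also rested on a coding transcript, Prss23-204, of 1937 bases and 2 exons, which held 88.6% of the gene's difference. It averaged 6.87 ± 4.81 (SD, n = 5) in the single and 19.5 ± 4.61 (SD, n = 6) in the double knockouts. Prss23-201, the only other Prss23 transcript that averaged at least 0.5, held 5.30% of the difference, at 0.470 ± 0.377 (SD, n = 5) and 1.22 ± 0.449 (SD, n = 6). It starts 9.60 kb downstream of Prss23-204. Within genotype the log2 levels of both transcripts moved together across the 11 libraries, with r = 0.86 as a description. Both starts are RefSeq starts, and 4 of the 8 Prss23 transcripts were at 0 in all libraries. Of the 31-base stretches of Prss23-204, 43.8% also occurred in another gene. That gene is Prss23os, which is antisense to Prss23 and shares 836 stretches with it. The deposited abundances hold no entry under the name Prss23os, so its level could not be read. The library kit kept strand per the labels, but whether the authors' quantification used strand was not stated in the labels, so reads of Prss23os could have been counted as Prss23.

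The 250 bases upstream of these starts are printed because the abundances of Trak2 and Prss23 rest on transcripts that begin at or near them: Trak2-201 begins 52 bases downstream of the RefSeq start of Trak2, and Prss23-204 begins at a RefSeq start. They are from RefSeq (build GRCm38.p6), minus strand, 5′ to 3′, at chr1:58973483-58973732 for Trak2, chr7:89527188-89527437 for Prss23-204 and chr7:89517587-89517836 for Prss23-201. Capitals mark GC boxes (GGGCGG on either strand).
Trak2: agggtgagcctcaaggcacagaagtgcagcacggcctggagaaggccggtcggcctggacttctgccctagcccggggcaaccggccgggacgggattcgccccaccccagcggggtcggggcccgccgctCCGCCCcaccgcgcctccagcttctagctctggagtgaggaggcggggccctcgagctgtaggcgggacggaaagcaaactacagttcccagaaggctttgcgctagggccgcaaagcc
Prss23-204: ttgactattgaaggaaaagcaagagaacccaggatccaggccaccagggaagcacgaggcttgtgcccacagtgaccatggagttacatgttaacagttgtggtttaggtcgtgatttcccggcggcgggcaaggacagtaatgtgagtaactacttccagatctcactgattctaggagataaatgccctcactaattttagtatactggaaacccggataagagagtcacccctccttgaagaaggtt
Prss23-201: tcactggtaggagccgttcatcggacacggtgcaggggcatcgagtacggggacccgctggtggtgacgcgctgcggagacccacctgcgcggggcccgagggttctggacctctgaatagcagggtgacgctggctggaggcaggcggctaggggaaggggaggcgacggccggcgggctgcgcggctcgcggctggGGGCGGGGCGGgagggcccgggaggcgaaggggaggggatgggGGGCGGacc
The window of Prss23-204, the transcript with nearly all of the abundance, held no GC box and 47.6% G or C. The window of Prss23-201 held 3 GC boxes, 2 of which overlap, and 74.4% G or C, and that of Trak2 held 1 box and 69.6%. Among all 32851 promoter windows of this length, 32.7% held a GC box. The AP-1 motif (TGANTCA, both strands) and the NF-kB motif were absent from all 3 windows. AP-1 was found in 6.75% and NF-kB in 7.25% of all windows. These are matches of letters in a window and say nothing of binding.

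Sh3tc1 rested on Sh3tc1-204, a nonsense_mediated_decay transcript of 12 exons and 3411 bases that held 86.2% of the difference. Its mean was 10.49 ± 5.55 (SD, n = 5) in the single and 4.80 ± 2.36 (SD, n = 6) in the double knockouts. Unlike the summed gene, this transcript overlapped widely: the Il10-/- replicates had 3.96, 6.71, 12.9, 10.6 and 18.3, and the double knockouts ran from 1.27 through a median of 5.004 to 7.79. Replicate 1 of Il10-/- was below 4 of the 6 double-knockout libraries. Only 0.887% of the 31-base stretches of Sh3tc1-204 occurred in no other transcript, and it has no base outside the exons of the coding transcripts of Sh3tc1. Its log2 level ran against that of the full-length coding Sh3tc1-207 within genotype, with r = -0.92 over 11 libraries. The sum was therefore steadier across libraries than the split between its transcripts. Sh3tc1-204 begins 13.03 kb from the nearest RefSeq start of the gene. The 3 protein-coding transcripts of Sh3tc1 together averaged 3.57 ± 3.23 (SD, n = 5) and 3.04 ± 1.79 (SD, n = 6), a log2 difference of -0.055.

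Rabggta was carried by Rabggta-208, a retained_intron transcript that held 53.7% of the difference, at 3.27 ± 2.53 (SD, n = 5) against 0.572 ± 0.587 (SD, n = 6). In the Il10-/- replicates it had 0, 3.70, 6.71, 1.79 and 4.13, so replicate 1 lay with the double knockouts, whose highest value was 1.49. A second retained_intron transcript, Rabggta-204, held 28.1%, at 2.21 ± 0.620 (SD, n = 5) and 0.801 ± 0.444 (SD, n = 6). The main coding transcript Rabggta-201 held 2.11%, with means of 3.51 ± 1.76 (SD, n = 5) and 3.41 ± 1.36 (SD, n = 6). No 31-base stretch of Rabggta-201 or Rabggta-208 was found in that transcript alone, so their split rested on reads that fit more than 1 transcript. All 4 coding transcripts summed to 5.57 ± 2.38 (SD, n = 5) and 4.86 ± 1.32 (SD, n = 6), a log2 difference of -0.14.

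Fer1l4 was spread over 3 transcripts. The retained_intron transcript Fer1l4-204 held 51.3% of the difference, the coding Fer1l4-201 of 45 exons held 15.9%, and the retained_intron Fer1l4-206 held 14.9%. Fer1l4-204 read 1.94, 0.497, 2.27, 2.42 and 5.13 in the Il10-/- replicates, and from 0.237 through a median of 0.359 to 0.648 in the double knockouts. Only replicate 2 of Il10-/- fell within the range of the other genotype. No Fer1l4 transcript, Fer1l4-204 included, passed the filter on low values, so none was in the fit over transcripts. Fer1l4-204 begins 28.1 kb from the RefSeq start, and 22.0% of its 31-base stretches occurred in no other transcript. The coding transcripts of Fer1l4 together averaged 1.52 ± 1.11 (SD, n = 5) and 0.473 ± 0.164 (SD, n = 6), a log2 difference of -0.91.

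The introns that these transcripts keep are shown at their 5′ splice sites, since the difference in Rabggta and Fer1l4 sits mostly in transcripts that hold them. Each line gives 12 bases of exon in lower case and then 18 bases of intron in capitals, 5′ to 3′ on the minus strand of mm10 with GENCODE M21 exons, from chr14:55719222-55719251, chr14:55718645-55718674, chr2:156019687-156019716 and chr2:156020324-156020353 in that order. Introns are numbered from the 5′ end of Rabggta-205 and Fer1l4-201, and were looked for only in retained_intron transcripts with a mean of at least 0.5.
Rabggta intron 10: tgcttttaaaagGTGATGCTGTCTAAAGCT
Rabggta intron 13: agtaccctcaaaGCAAGTTGGGCCTTGGGG
Fer1l4 intron 43: tacatcctcacaGTGCGTAGCCCATAATGA
Fer1l4 intron 42: acgactttcttgGTACTTAGCTTTCCTAAC
Intron 10 of Rabggta (97 bases) is kept in 3 listed transcripts, whose sum averaged 5.60 ± 1.91 (SD, n = 5) in the single and 2.80 ± 1.04 (SD, n = 6) in the double knockouts. The ranges, 3.67 to 8.53 and 1.54 to 4.19, overlapped. Intron 13 (100 bases) begins with GC where the other 3 shown begin with the usual GT, and is kept by Rabggta-204 alone. Intron 43 of Fer1l4 (73 bases) is kept in 2 transcripts, whose sum averaged 3.37 ± 1.77 (SD, n = 5) and 0.715 ± 0.315 (SD, n = 6). Intron 42 (356 bases) is kept by Fer1l4-204.

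Zc3h7a was carried by Zc3h7a-206, a retained_intron transcript of 699 bases and 3 exons, which held 47.6% of the difference. It had 40.1, 35.6, 68.9, 53.0 and 102 in the Il10-/- replicates and 15.6, 29.6 and 43.6 as the lowest, median and highest of the double knockouts. Replicates 1 and 2 of Il10-/- lay within the range of the other genotype. The means were 59.97 ± 27.0 (SD, n = 5) and 30.2 ± 10.6 (SD, n = 6). The full-length coding transcript Zc3h7a-201, of 3825 bases, held 18.3%, at 31.6 ± 8.15 (SD, n = 5) and 20.1 ± 4.41 (SD, n = 6). Transcripts of other classes followed, the retained_intron Zc3h7a-213 with 11.1% and the nonsense_mediated_decay Zc3h7a-210 with 10.52%. None of the retained_intron transcripts of Zc3h7a with a mean of at least 0.5 kept a whole intron of Zc3h7a-201. The other Zc3h7a transcripts were not searched. Just 41 bases of Zc3h7a-206 lie outside the exons of coding transcripts. Within genotype Zc3h7a-206 and Zc3h7a-201 moved together, with r = 0.89 over 11 libraries. Coding transcripts made up 21.5% ± 1.12 (SD, n = 5) of the gene in Il10-/- libraries, with a range of 19.7% to 22.6%, against 23.9% ± 1.25 (SD, n = 6) and 22.8% to 26.2% in the double knockouts. These shares did not overlap, by a narrow gap, while both classes were lower. In the other genes described here the coding shares of the genotypes overlapped. How many of all genes have coding shares without overlap was not counted.

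**Figure D2:**
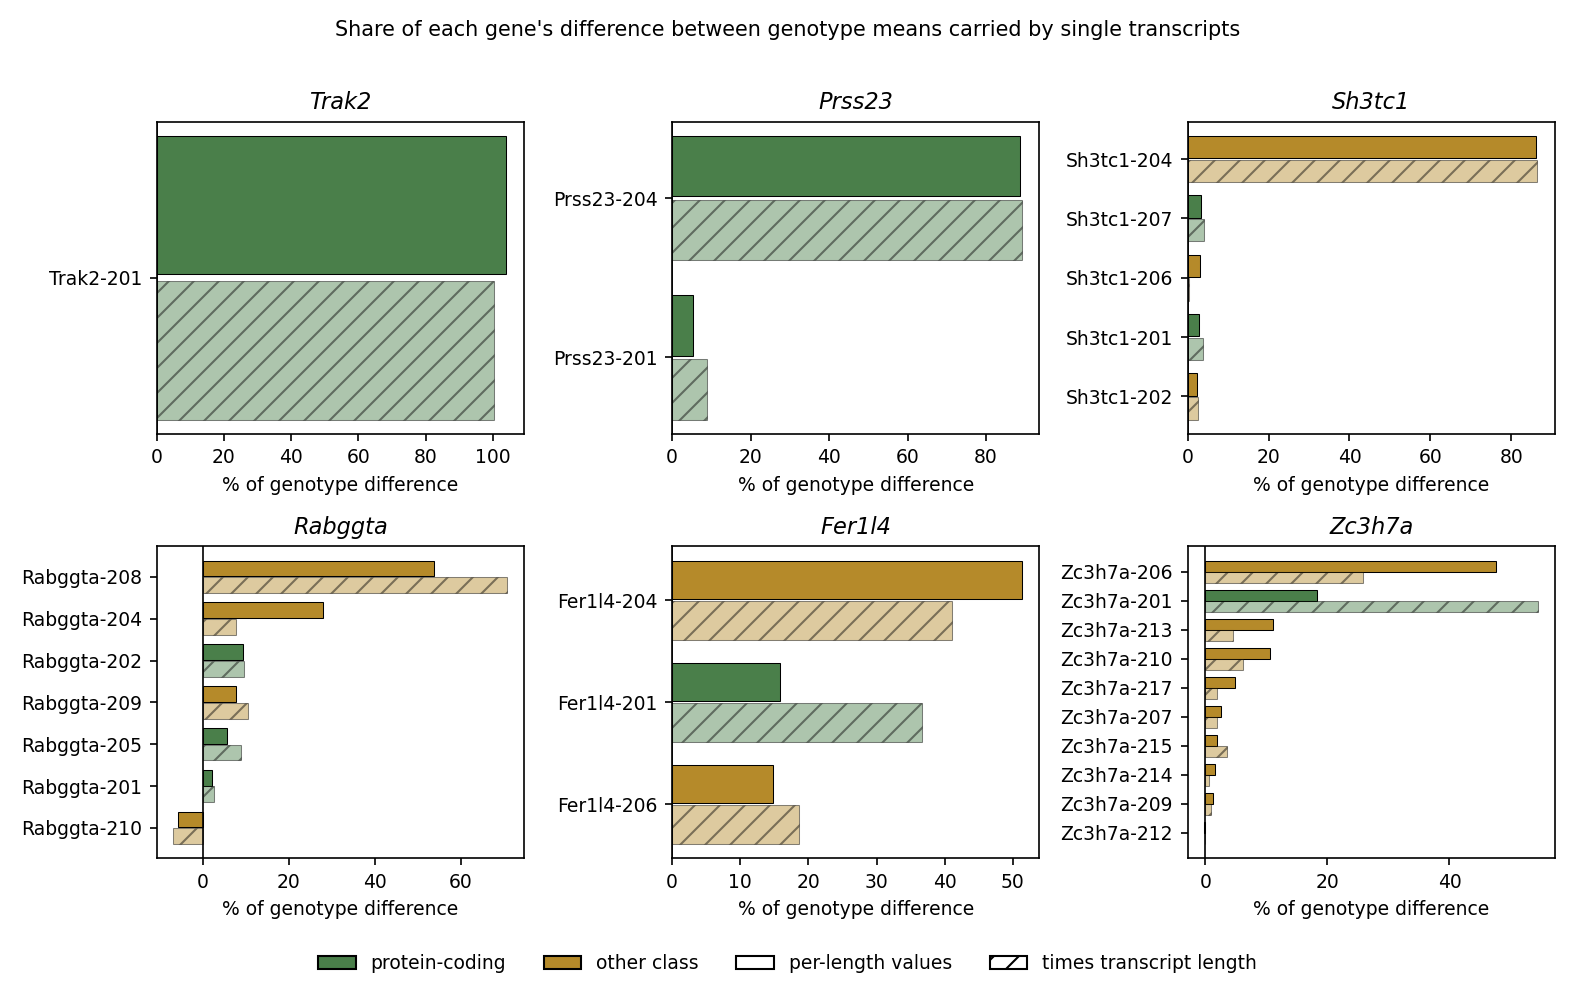
Share of each gene's difference between genotype means (percent) held by every transcript with a mean of at least 0.5, for the deposited per-length values (solid) and after each value was multiplied by transcript length (hatched). Trak2-201 and Prss23-204 are of the class protein_coding, Sh3tc1-204, Rabggta-208 and Fer1l4-204 are not, and in Zc3h7a the leading transcript changes with the length weighting.

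The choice of unit changed 1 of these 6 assignments. Per-length values weight a short and a long transcript alike, so each value was also multiplied by the transcript's length. Zc3h7a-201 then held 54.5% of the difference of Zc3h7a and the short Zc3h7a-206 held 25.9%. In the other 5 genes the leading transcript was unchanged, with Fer1l4-204 at 41.0% and Fer1l4-201 close behind at 36.7%. With this weighting the log2 differences of the genes were 0.76 for Trak2, 1.64 for Prss23, -0.66 for Sh3tc1, -0.54 for Rabggta, -1.43 for Fer1l4 and -0.72 for Zc3h7a, and Rabggta no longer separated the genotypes.

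Summed by class, transcripts outside the class protein_coding held 92.0% of the difference of Sh3tc1, 85.8% of that of Rabggta, 81.5% of that of Zc3h7a and 73.8% of that of Fer1l4. In Sh3tc1 most of this was the nonsense_mediated_decay transcript Sh3tc1-204 (86.2%), which has an annotated coding stretch of 390 bases. Multiplied by length, the 4 class shares were 89.95%, 83.0%, 45.4% and 61.7%, so in Zc3h7a protein_coding transcripts then held the larger part. As a mean share of the gene's own level in Il10-/- libraries, transcripts outside protein_coding made up 78.4% of Sh3tc1, 60.01% of Rabggta, 78.5% of Zc3h7a and 69.5% of Fer1l4. In Zc3h7a and Fer1l4 their part of the difference was thus close to their part of the level. In Prss23 they held 5.35%, all in Prss23-208, which was above 0 in 2 libraries only, at 4.17 in double-knockout replicate 3 and 0.390 in replicate 4. In Trak2 their difference ran the other way, at -3.28%. Restricted to coding transcripts, the log2 difference was 0.75 for Trak2 and 1.63 for Prss23, close to the whole gene, and -0.63 for Zc3h7a. For Sh3tc1 and Rabggta the mean coding sums lay within 1 SD of each other, by the SD of either group. For Fer1l4 the log2 difference was -0.91, and the means lay within 1 SD of Il10-/- but not within 1 SD of the double knockouts. Of the 6 genes, Trak2 alone stayed free of overlap on coding transcripts. The sums of the other transcripts overlapped in every gene. In Sh3tc1 they ran from 8.49 to 18.3 in Il10-/- and from 3.24 to 9.71 in the double knockouts. In Rabggta they ran from 5.48 to 10.49 and from 2.20 to 5.66.

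**Figure D3:**
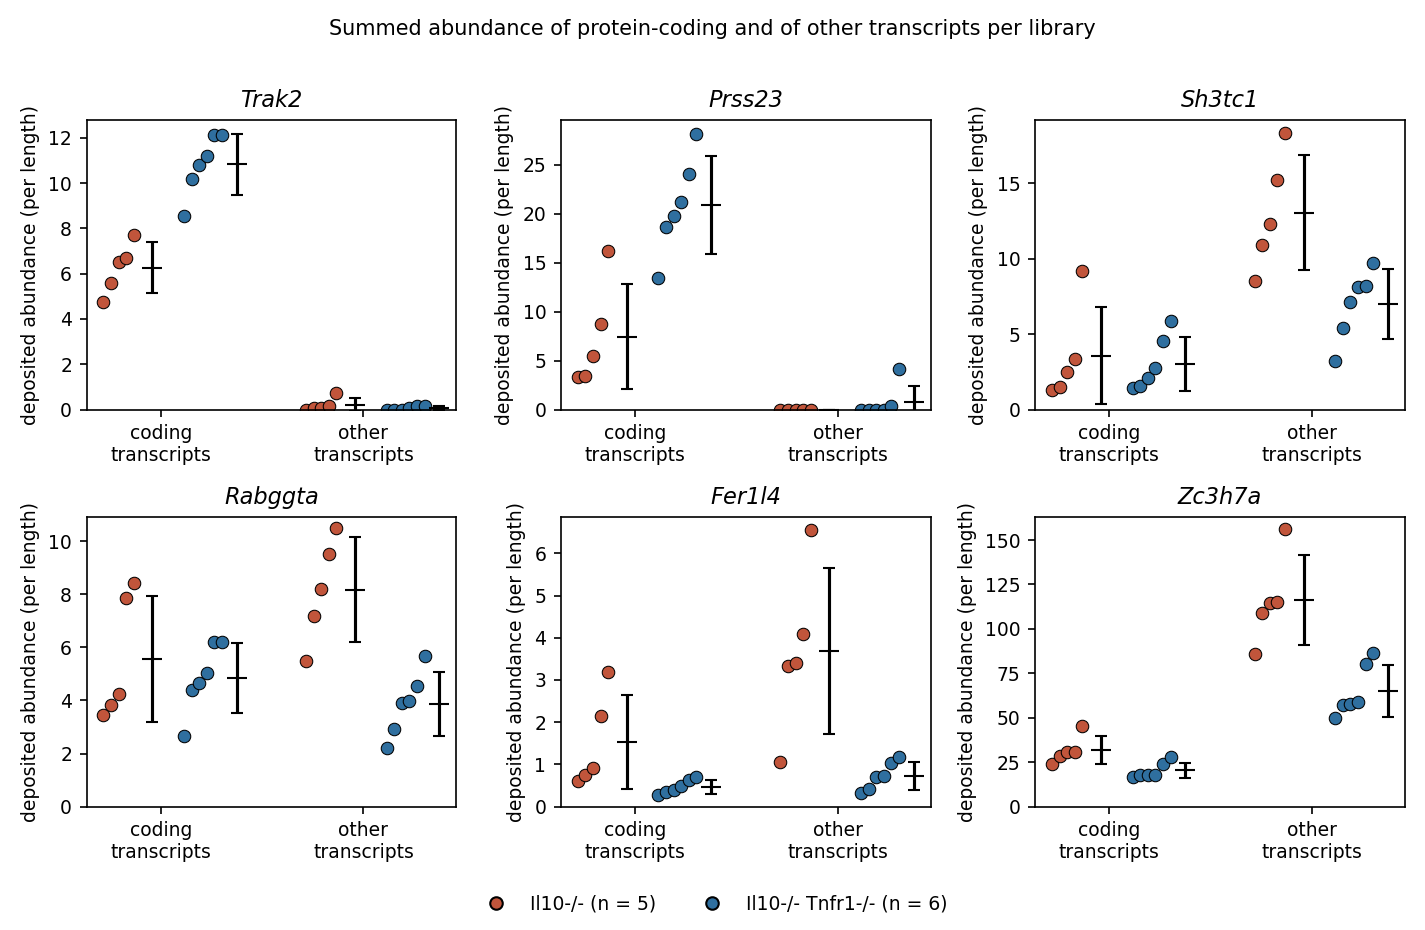
Summed deposited abundance (per transcript length) of protein-coding transcripts and of all other transcripts of each gene, 1 point per library, with the mean and SD beside each group. Coding sums are higher in Il10-/- Tnfr1-/- libraries for Trak2, without overlap, and for Prss23, with overlap. The coding sums of Sh3tc1 and Rabggta overlap almost fully. Their other transcripts have a lower mean in Il10-/- Tnfr1-/- libraries but overlap too.

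The direction of the transcript classes was then set against the whole table. Of 4254 retained_intron transcripts tested, 69.1% were lower in Il10-/- Tnfr1-/- libraries, with a median log2 difference of -0.22. Of 17762 protein-coding transcripts, 37.6% were lower, with a median of 0.14. At an unadjusted limma p under 0.05, a level that 6.27% of all transcripts passed (3.5% higher and 2.77% lower), 220 retained_intron transcripts were lower and 37 higher. With every library set to the same total, 59.7% of retained_intron and 27.2% of coding transcripts were lower. Of the 22 retained_intron transcripts of the 6 genes, 19 had a lower mean in the double knockouts and 3, Rabggta-210, Zc3h7a-212 and Zc3h7a-218, a higher one. All but the 2 of Trak2 belong to genes whose sum was lower, so the choice of genes largely fixed this direction. Unlike the 4254, the 22 include transcripts too low to be tested. As a share of the library sum, this class made up 7.79% ± 1.99 (SD, n = 5) of the single-knockout and 6.29% ± 0.902 (SD, n = 6) of the double-knockout libraries. The ranges overlapped, and all 462 assignments of libraries to genotypes gave an exact two-sided permutation p of 0.147, or 0.284 after adjustment over 4 transcript classes. Il10-/- replicates 3 and 6 had the highest shares, 10.1% and 9.68%, and the part of this share in the 3 genes' differences was not tested.

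**Figure D4:**
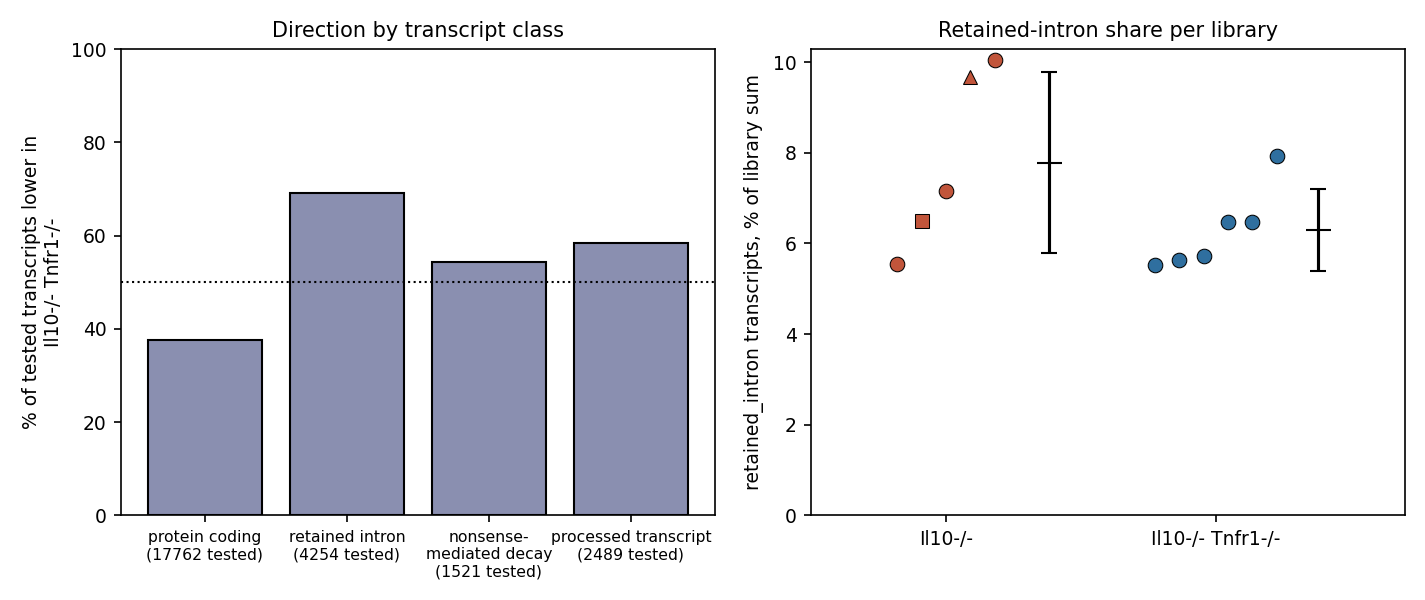
Left, percent of tested transcripts of each annotated class that were lower in Il10-/- Tnfr1-/- libraries (dotted line at 50%); right, share of each library's summed abundance in retained_intron transcripts, with the mean and SD. Most retained_intron transcripts were lower (69.1% of 4254), yet the library shares of the genotypes overlapped.

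Covariation was measured within genotype, since the difference between genotypes would by itself make these genes correlate. The genotype mean was taken from each log2 value, and the libraries were permuted 100000 times within genotype for each of the 15 pairs of genes, with two-sided p-values adjusted over the 15. By r, 1 of 15 pairs passed 0.05 after adjustment and 5 did so unadjusted, and by rank (Spearman's rho) 3 pairs passed after adjustment.

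The pair that passed by both was Prss23 and Fer1l4, which ran in opposite directions. Over the 11 libraries r was -0.93 (permutation test, adjusted p = 0.0021) and Spearman's rho was -0.95 (permutation test, adjusted p = 0.0009). Without Il10-/- replicates 2 and 6, the libraries farthest from the median, r was -0.83. In the 6 Il10-/- Tnfr1-/- libraries alone r was -0.84. The relation therefore did not rest on the end libraries, but with every library set to the same total r was -0.76 and the permutation test gave an adjusted p of 0.235.

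Zc3h7a varied with the same genes less closely. With Fer1l4 its r was 0.73 (permutation test, adjusted p = 0.0865) and its rho 0.80 (adjusted p = 0.0289). With Prss23 r was -0.72 (permutation test, adjusted p = 0.0784) and rho -0.75 (adjusted p = 0.0289). Rabggta with Fer1l4 gave r = 0.71 (permutation test, adjusted p = 0.0980), and Trak2 with Zc3h7a r = -0.65 (adjusted p = 0.120), which was -0.09 without the 2 farthest libraries. All 4 relations were weaker with equal totals, where r was 0.58 for Fer1l4 with Zc3h7a, -0.34 for Prss23 with Zc3h7a, 0.40 for Rabggta with Fer1l4 and -0.11 for Trak2 with Zc3h7a. Over the 11 libraries Sh3tc1 had no r beyond 0.46 in size with any other member. Its r with Rabggta was 0.29, but 0.87 in the Il10-/- libraries alone and -0.31 in the 6 double knockouts alone. These values moved with the setting: with equal totals the r of Sh3tc1 was 0.52 with Rabggta and changed from -0.45 to 0.50 with Trak2, and without double-knockout replicate 6 it was -0.62 with Prss23.

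**Figure D5:**
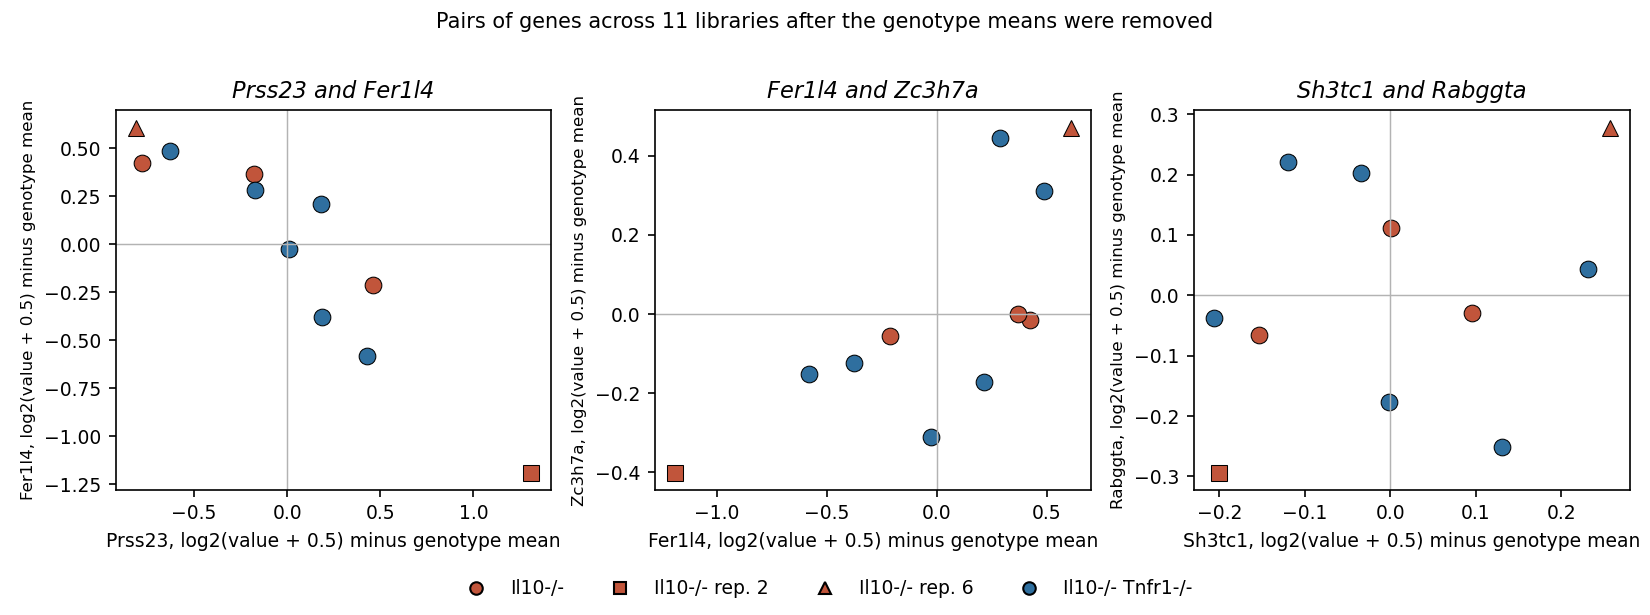
Log2(value + 0.5) of pairs of genes in the 11 libraries after each genotype's mean was taken away. Prss23 and Fer1l4 fall along a descending line (r = -0.93), Fer1l4 and Zc3h7a rise together more loosely (r = 0.73), and Sh3tc1 and Rabggta scatter more widely (r = 0.29).

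Over the same centred values, the genes whose pattern was most like each member were named as a description. They were Lrrc8b (r = 0.95) and Igf2r (0.95) for Trak2, and Tox (0.93) and Bche (0.93) for Prss23. Ppil3 (0.94) and Cfb (0.89) came closest to Sh3tc1, and Hdhd5 (0.93) and Oit1 (0.88) to Rabggta. St6galnac6 (0.94) and Duox2 (0.91) followed Fer1l4, and Pqlc1 (0.93) and Psg16 (0.92) followed Zc3h7a. Each is the top of a search over many genes in 11 libraries. Among 13560 other genes, the 95th percentile of r was between 0.56 (Sh3tc1) and 0.73 (Trak2).

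Markers of the cell types in the colon wall were set beside the members in the same way. Of 36 relations between a member and a marker score, 0 passed an adjusted permutation p of 0.05 and 6 had an unadjusted p under 0.05. Prss23 followed the fibroblast score (r = 0.67, without the 2 farthest libraries 0.58) and ran against the epithelial score (r = -0.62, then -0.40). Zc3h7a ran the other way, with 0.68 (then 0.42) for epithelial and -0.67 (then -0.56) for fibroblast markers. For Fer1l4 and Trak2 the r with fibroblast markers was -0.63 (then -0.46) and 0.62 (then 0.38). All 8 fibroblast markers were higher in Il10-/- Tnfr1-/- libraries, 2 of them at an unadjusted limma p under 0.05 (8.34% of all genes). Their summed level was 64.5 to 447 in Il10-/- and 224 to 1789 in the double knockouts, and their median log2 difference 0.86. The median was larger for smooth muscle markers (1.79, 9 of 10 at that p) and for enteric neuron and glia markers (1.21, 8 of 8 higher, 0 at that p). Epithelial markers were lower for 9 of 11, with a median of -0.22. With the smooth muscle score in the fit, the log2 difference was 0.60 for Trak2, 1.24 for Prss23, -0.67 for Sh3tc1, -0.60 for Rabggta, -1.31 for Fer1l4 and -0.64 for Zc3h7a. Sample names open with a digit whose meaning is not given, and the digit 1 is the only one found in both genotypes, in 3 Il10-/- and 2 double-knockout mice. Among these 5 libraries alone none of the 6 genes overlapped, and the log2 differences were 0.50, 1.45, -0.48, -0.66, -1.54 and -0.85 in the same order. The genes were chosen on libraries that include these 5, and the share of all genes without overlap was not counted for them. With 3 mice against 2, no exact test could reach 0.05, and the smallest p it allows is 0.1.

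The partners and relatives of each gene were read from the fit over all genes, where limma gave no gene of any of the 6 family lists an adjusted p under 0.05. In the machinery that moves mitochondria, 11 of 19 tested genes besides Trak2 were higher and 8 lower, and 0 had an unadjusted p under 0.05 (8.34% of all genes did). The median log2 difference of these 19 was 0.09, beside 0.05 over all genes. The paralogue Trak1, which serves the same adaptor role, averaged 52.6 ± 10.03 (SD, n = 5) and 44.1 ± 14.6 (SD, n = 6), a log2 difference of -0.28 ± 0.21 (SE). The Miro GTPases that anchor both adaptors to the mitochondrial surface had log2 differences of 0.11 ± 0.13 (SE, Rhot1) and 0.02 ± 0.15 (SE, Rhot2).

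For Rabggta, the genes of protein prenylation and Rab delivery were split 6 higher and 6 lower. An unadjusted limma p under 0.05 was reached by 2 of 12, both higher (8.34% of all genes reached it). Ggps1, which makes the geranylgeranyl donor, averaged 12.4 ± 3.11 (SD, n = 5) and 18.1 ± 1.01 (SD, n = 6), a log2 difference of 0.57 ± 0.16 (SE, limma adjusted p = 0.536). It was the only 1 of the 12 without overlap, which was so for 0.575% of all genes tested. Chm, a Rab escort protein that presents Rabs to the enzyme, had a log2 difference of 0.94 ± 0.40 (SE, limma adjusted p = 0.536) and its relative Chml 0.48 ± 0.27 (SE). Rabggtb, the other subunit of the same enzyme, averaged 41.2 ± 1.14 (SD, n = 5) and 39.1 ± 3.77 (SD, n = 6), with a log2 difference of -0.08 ± 0.11 (SE) that was 0.06 with equal library totals. The lower sum of Rabggta thus stood beside a catalytic partner whose groups overlapped.

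Among 14 other serine proteases, 9 were lower and 5 higher than in Il10-/-, and 2 had an unadjusted p under 0.05 (8.34% of all genes did). Both, Prss27 and the membrane protease Tmprss4, were lower, opposite to Prss23, at -1.98 ± 0.55 and -0.56 ± 0.22 (SE, limma adjusted p = 0.536 for each). Prss35, the closest relative of Prss23 on the list, was too low to be tested, at 0.250 ± 0.067 (SD, n = 5) and 0.333 ± 0.178 (SD, n = 6). Of the other ferlins, 3 were tested and none had an unadjusted p under 0.05. Dysf, which takes part in membrane repair, had a log2 difference of -0.12 ± 0.42 and Myof one of -0.37 ± 0.18 (SE).

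Besides Zc3h7a, 22 CCCH zinc finger genes were tested, 12 higher and 10 lower, and 1 had an unadjusted p under 0.05 (8.34% of all genes did). This was Mbnl2, a splicing regulator, at 36.6 ± 13.6 (SD, n = 5) and 53.9 ± 8.15 (SD, n = 6), a log2 difference of 0.66 ± 0.29 (SE, limma adjusted p = 0.536). Zc3h7b, the paralogue of Zc3h7a, differed in the opposite direction, 6.90 ± 2.38 (SD, n = 5) against 10.3 ± 4.18 (SD, n = 6), with overlap. Of 10 genes of the Rab11 recycling list besides Sh3tc1, 6 were higher, 4 lower and 0 at an unadjusted p under 0.05. The paralogue Sh3tc2, whose loss causes a demyelinating neuropathy, was low in both groups, 1.18 ± 0.390 (SD, n = 5) and 1.02 ± 0.565 (SD, n = 6).

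The authors' deposited table compared single transcripts and gave a p-value for 29 of the 55. For the carrying transcripts, the authors' deposited table listed log2 fold changes of 0.83 for Trak2-201, 1.52 for Prss23-204, -1.12 for Sh3tc1-204, -2.54 for Rabggta-208, -2.57 for Fer1l4-204 and -0.93 for Zc3h7a-206. Each of these 6 carried a q-value of 0.684 there, and no transcript of the authors' deposited table had a q-value under 0.05.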

How the data were processed

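Stranded mRNA libraries of total colon RNA were read as single-end reads, per the labels' protocols. Per the submitters' processing notes, the build was mm10 and the tools were CASAVA, kallisto and sleuth (no versions given). The deposited abundances are a scaled, never-negative signal per transcript, not counts, so sequencing depth is not known and no interval for counting error could be set. The deposited p-value, q-value and log2 fold change came from the authors' comparison, per the file headers. Of 12 samples, 11 had a column that starts with their title. Another 1 column fitted none of the titles, and Il10-/- replicate 4 had no column: neither was used.

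After 866 repeated rows were dropped, transcripts were summed by gene identifier. All 55 member transcripts were found in GENCODE M21, which gave classes, exons and sequences (96.6% of all transcripts matched). Since the values are not counts, limma 3.58.1 (under R 4.3.3) with trend and robust moderation was run on log2(value + 0.5), for genes or transcripts over 1 in at least 5 libraries, the size of the smaller group, and p-values were adjusted by Benjamini-Hochberg (threshold 0.05). These steps were tested on simulated data. Summaries used Python with numpy 2.4.6 and pandas 2.3.3. The p-values measure the spread between these mice, and the labels do not say whether any are littermates. A log2 difference with the 0.5 added understates the change of low genes. The members and the gene lists were chosen with earlier results of these data known, so no member was tested between genotypes. Named were the 6 members, their transcripts with a mean of at least 0.5, the listed partners, list genes with an unadjusted p under 0.05, and the 2 genes of highest centred r per member among those with a mean of at least 5. Alternatives were other scalings, pseudocounts and filters, each library left out, a smooth muscle covariate, names that start with 1 and, chosen after seeing the data, coding transcripts only and length weighting.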

Additional observations from a re-analysis of the deposited data

How the results depend on the processing

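The direction of all 6 genes held in each of the 126 alternative values computed for them, and 122 of these lay within 1 residual SD of the reported difference. Since the genes were chosen for this difference in the same libraries, a kept direction was largely fixed in advance. The 4 that moved further were the log2 difference of Sh3tc1 among names that start with 1 (-0.48) and, on coding transcripts only, those of Sh3tc1 (-0.055), Rabggta (-0.14) and Fer1l4 (-0.91). Leaving out each library in turn gave ranges of -0.75 to -0.64 for Sh3tc1, 0.62 to 0.79 for Trak2, -0.70 to -0.55 for Rabggta, 1.48 to 2.01 for Prss23, -1.96 to -1.51 for Fer1l4 and -0.89 to -0.67 for Zc3h7a. Equal library totals moved the median of all genes from 0.05 to 0.19 on the log2 scale and made Rabggta overlap and Fer1l4 separate. Over these omissions 0 to 2 genes and 0 to 1 transcripts passed an adjusted p of 0.05: Tnfrsf1a and Il18, and the transcript ENSMUST00000229679.1 of Gpt, each without Il10-/- replicate 2. An unadjusted p under 0.05 was reached by 621 genes when smooth muscle was a covariate, and by 149 genes among names that start with 1. Covarying pairs numbered 0 with equal totals, 3 with median-ratio size factors and 1 to 2 when single libraries were left out. No paired analysis was possible because these are different mice whose titles share no number across genotypes, and the replicate numbers used here only count the samples of each group. With 11 libraries and unknown depth, no interval could be set for the transcripts at 0.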
